A study of Homo sapiens with 12 samples.

Results

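p53 target genes are the genes that the transcription factor p53 is known to bind and raise. The members were taken from a list of 39 textbook targets, set by gene name with earlier results of these data known. They were sorted by what their products do. Of these 39 genes, 36 had at least 1 probe set that names a single gene (94 probe sets in all), and 34 genes with 78 probe sets were bright enough to be tested. They were read against 13952 tested genes in all. BTG2 and FDXR were not analysed here, and BBC3 stood only on a probe set that names several genes. TNFRSF10A and EDA2R had probe sets too dim to test.

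Signals came from 12 arrays of 293T cells, a human embryonic kidney line that carries the SV40 large T antigen. Each group was a transient transfection with polyethylenimine and was collected after 48 hours, with 4 arrays labelled as biological replicates. The first group received an empty vector, which is the control. The second received a vector that expresses chr1.tRNA68-Gly(GCC), a glycine tRNA. The third received a vector with a hairpin for CU1276, a small RNA made from that tRNA. The labels give no separate mark of the cells that took up plasmid, so each signal is a mean over transfected and untransfected cells. In such bulk samples, fewer expressing cells and less RNA per cell cannot be told apart.

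p53 is held low by MDM2, a ubiquitin ligase that is itself a p53 target, and it accumulates when DNA is damaged. It then raises genes that halt the cell cycle, end its own signal, trigger cell death, shift metabolism and repair DNA. Large T antigen binds p53 and holds it inactive. The study's title links this tRNA-derived RNA to DNA damage, and the comparisons below ask how these p53 targets stood with each vector.

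The promoter stretches that hold a p53 half-site are shown first, because p53 is known to act through such sites. The motif searched was the p53 half-site consensus of 10 letters, which reads the same on both strands. Windows ran from 250 bases before to 50 bases after each RefSeq start (build GRCh38.p14), and 32 of the 39 genes had one. RRM2B, PHLDA3, TNFRSF10A, GADD45A, FBXO22, TNFRSF10B and TP53INP1 had none in the table. A half-site was found for 7 of the 32 genes, or 21.9%, against 8.06% of all 27305 genes with a window. A full site, which is a pair of half-sites with at most 13 bases between them, was found for DDB2 only among these genes, and for 10 genes or 0.037% overall. A match is a description of letters and does not show binding. In these 30-base stretches, written 5′ to 3′ along the gene's strand, capitals mark the half-sites.
PLK2: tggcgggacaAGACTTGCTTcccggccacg
SESN1: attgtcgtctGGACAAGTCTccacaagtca
FAS: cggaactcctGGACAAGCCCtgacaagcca
DDB2: gtttGAACAAGCCCtGGGCATGTTTggcgg
RPS27L: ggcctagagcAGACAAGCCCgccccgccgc
AEN: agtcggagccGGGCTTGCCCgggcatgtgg
FDXR: gggcaggagcGGGCTTGCCCtgcggagcag

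These stretches lie at chr5:58460199-58460228 on the minus strand (PLK2), chr6:109009018-109009047 minus (SESN1) and chr10:88991299-88991328 plus (FAS). The others lie at chr11:47214975-47215004 plus (DDB2), chr15:63157517-63157546 minus (RPS27L), chr15:88621296-88621325 plus (AEN) and chr17:74872986-74873015 minus (FDXR). Counted from the start, the half-site begins at -34 in AEN, -49 in SESN1, -59 in RPS27L, -122 in FAS and -132 in PLK2. In DDB2, which recognises ultraviolet damage, the pair of half-sites begins at 6. FDXR was not measured. All 6 measured genes with a half-site had lower means with the tRNA than the empty vector, with a median log2 fold change of -0.093. Of the 22 measured genes whose window held none, 16 had a lower mean, with a median of -0.069. With the hairpin vector, 2 of the 6 genes with a half-site were lower and 4 higher, with a median of 0.0052 against 0.032 for the 22 without. Between the vectors both medians were close, at 0.13 with and 0.14 without a half-site, for hairpin over tRNA.

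The values are MAS5 signals, the authors' scaled brightness of a probe set on a linear scale. Each gene was read from its brightest probe set with a single gene name, and a probe set was tested where its mean log2 signal reached the 40th percentile, a geometric mean of 43.3. Log2 fold changes carry a limma standard error after ±, from 1 fit to all 12 arrays with 4 per group. That fit has no term for the replicate number in the labels, so these errors include differences between replicate numbers. The p-values of limma were adjusted by Benjamini-Hochberg over 32768 tested probe sets, with a threshold of 0.05. These p-values measure the spread between the arrays of a group, and the labels say no more of their origin than that they are biological replicates.

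The arrays shared 1 scaling, with a 2% trimmed mean of 500.1 each, and their medians ran from 75.9 to 104. Signals of Bacillus control RNAs averaged 1726 to 1834 in arrays numbered 1 and 331 to 389 in arrays numbered 2. In arrays numbered 3 and 4 they averaged 20.0 to 26.1, and each of these levels holds the 3 groups equally. GAPDH, read at both ends as a check of RNA integrity, had 3'/5' ratios of 1.18 to 1.47 (empty), 1.25 to 1.52 (tRNA) and 1.20 to 1.67 (hairpin). Of 9 measured kidney epithelial markers, 8 were bright enough to test, among them KRT8, KRT18 and PAX2. The blood cell markers PTPRC, MS4A1, CD3E, CD4, CD14 and LYZ were too dim to test, while CD79A, CD3D and HBB were bright enough. Of 8 fibroblast markers, 6 were bright enough. The summed marker signal ran from 5788 to 6786 for kidney, from 346 to 762 for blood and from 936 to 1559 for fibroblast markers, and its ranges overlapped between the groups.

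With the tRNA vector, more p53 targets had a lower mean than a higher one. The lower ones included SPATA18 and TP53I3, which act in mitochondria and in redox metabolism, AEN, a nuclease of cell death, ZMAT3, which binds RNA, and all 4 repair genes. Of the 34 measured targets, 26 (76.5%) had lower means than in the control group, against 49.3% of all genes, and the median log2 fold change was -0.085, against 0.0030 over all genes. No target passed the limma adjusted p of 0.05, and neither did any gene (0% of 13952), and the smallest adjusted p among the targets was 0.99998. At an unadjusted limma p under 0.05, 6 targets were lower and 1 higher, against 2.41% and 1.85% of all genes. The total of both ran from 5 to 10 over the 20 alternative settings. The arrays of both groups did not overlap for 5 lower targets and 1 higher target, against 1.69% and 1.25% of all genes.

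**Figure D1:**
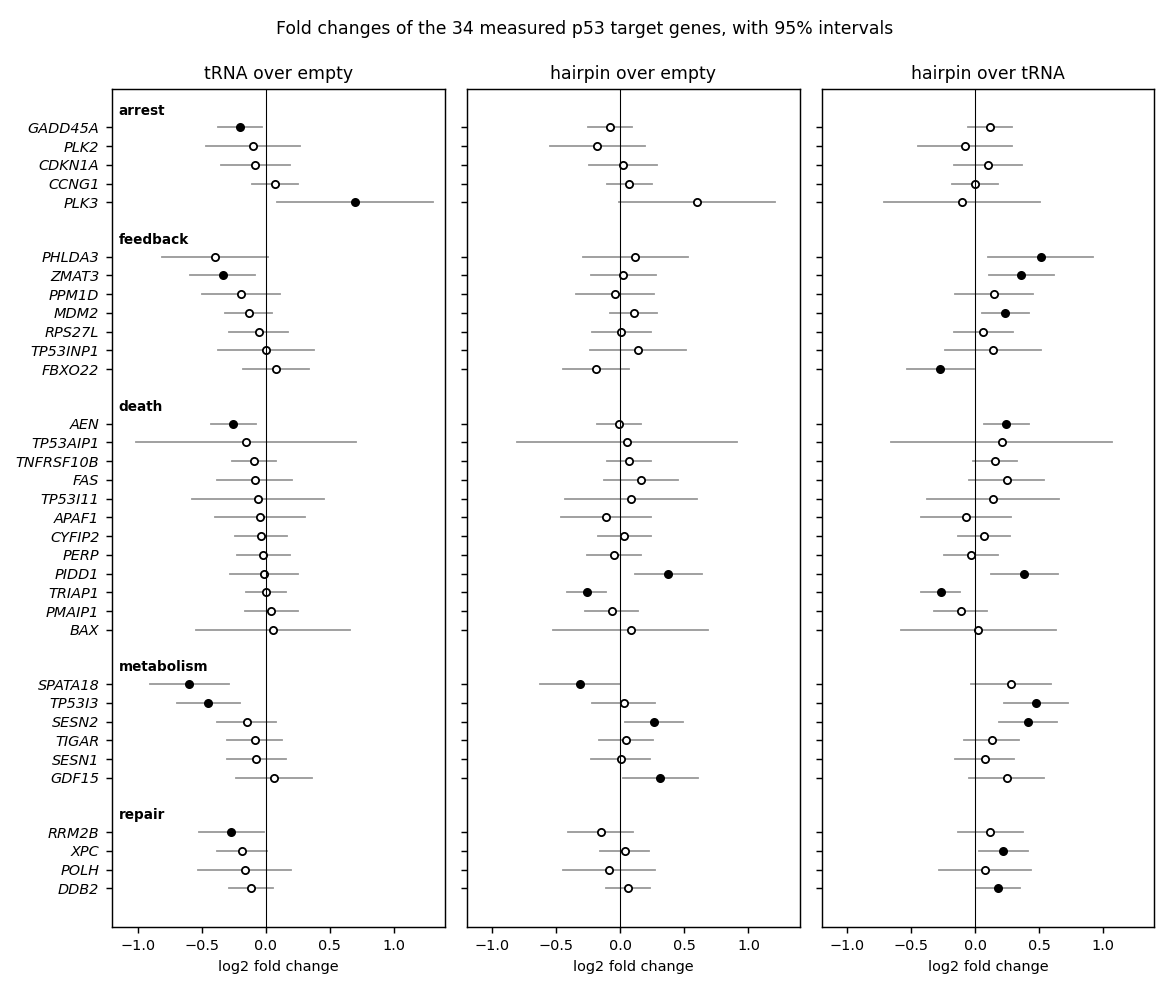
Log2 fold change (x axis) of the 34 measured p53 targets in the 3 comparisons, by function. Points are limma estimates with 4 arrays per group, lines their 95% intervals, and filled points have an unadjusted limma p under 0.05. In the left panel most points lie below 0, and in the right panel most lie above it.

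The metabolic targets held the members farthest below the empty vector. SPATA18, which helps clear damaged mitochondria, had signals of 1283, 946, 983 and 1119 with the empty vector and of 868, 538, 688 and 795 with the tRNA vector. Its highest tRNA array lay below its lowest empty vector array. The log2 fold change was -0.60 ± 0.15 with a fold of 0.661, and it stayed at an unadjusted limma p under 0.05 in all 20 alternative settings. Its other tested probe set gave -0.12 ± 0.35, and the mean over both was -0.36.

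TP53I3, a quinone oxidoreductase, had signals of 718, 744, 750.4 and 795 with the empty vector and of 506, 486, 612 and 611 with the tRNA vector. Here too all 4 tRNA arrays lay below all 4 empty vector arrays. The log2 fold change was -0.45 ± 0.12, a fold of 0.733. SESN1 and SESN2 are sestrins, which restrain the growth kinase mTORC1, and TIGAR slows glycolysis. Their tRNA vector log2 fold changes were -0.074 ± 0.11, -0.15 ± 0.11 and -0.085 ± 0.10 in this order, each with overlapping arrays. The other SESN2 probe set had the opposite sign, at 0.14 ± 0.34. GDF15, a secreted stress factor, had a log2 fold change of 0.066 ± 0.14 and was the 1 metabolic target of 6 with a higher mean. The median of these 6 was -0.12.

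All 4 repair targets had a lower mean with the tRNA vector, with a median of -0.17, and the arrays of the groups overlapped for each. RRM2B, a ribonucleotide reductase subunit that supplies nucleotides, had signals of 1214, 1269.9, 1103 and 1316 with the empty vector and of 1125, 923, 968 and 1056 with the tRNA vector. It was lower in 4 of 4 same-number pairs, with a log2 fold change of -0.27 ± 0.12. Its unadjusted limma p was under 0.05 in 14 of the 20 alternative settings. XPC, the lesion sensor of nucleotide excision repair, had -0.19 ± 0.090, from 2129, 2209.5, 2045 and 2598 to 1975, 1778, 2091 and 2037, and -0.11 without empty vector array 4. DDB2 had -0.12 ± 0.080 and POLH, a polymerase that copies past ultraviolet lesions, -0.16 ± 0.17.

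Among the targets grouped as feedback, a label that here also takes in ZMAT3 and PHLDA3, 5 of 7 had a lower mean, with a median of -0.13. ZMAT3 had signals of 1286, 1327, 1380.0 and 1623 with the empty vector and of 938, 1127, 1240.0 and 1145 with the tRNA vector, with no overlap. Its log2 fold change was -0.34 ± 0.12. Of its 4 other tested probe sets, 2 had the opposite sign, at 0.085 ± 0.19 and 0.011 ± 0.17. The mean over all 5 probe sets was -0.12, with an unadjusted limma p of 0.32.

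PHLDA3, an inhibitor of the survival kinase AKT, had signals of 422, 512, 503 and 567 with the empty vector and of 416, 507, 292 and 333 with the tRNA vector, and 3 of the 4 tRNA arrays lay below every empty vector array. Its log2 fold change was -0.40 ± 0.19, and -0.26 as the mean over its probe sets. MDM2 had signals of 4491, 3819, 4353 and 4647 with the empty vector and of 4425, 3893, 3772 and 3685 with the tRNA vector, which overlap. Its log2 fold change was -0.13 ± 0.086. Of 7 other tested MDM2 probe sets, 3 had the opposite sign, at 0.0021 ± 0.17, 0.047 ± 0.16 and 0.029 ± 0.39, and the mean over its probe sets was -0.20. PPM1D, a phosphatase that switches p53 off, had -0.19 ± 0.14, and RPS27L, a ribosomal protein variant, -0.054 ± 0.11. FBXO22, a ubiquitin ligase subunit, had a higher mean, at 0.080 ± 0.12. TP53INP1, a cofactor of p53, had nearly equal means in log2 units, with 907 ± 186 and 892 ± 70.9 as signals (SD, n = 4).

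Of the 12 measured cell death targets, 9 had a lower mean with a median of -0.040, and AEN alone had an unadjusted p under 0.05. AEN had signals of 3026, 3246, 3306 and 3334 with the empty vector and of 2919, 2501, 2824 and 2596 with the tRNA vector. All 4 tRNA arrays were lower than every empty vector array, and the log2 fold change was -0.25 ± 0.082. BAX, which opens the mitochondrial membrane, had signals of 383, 211, 475 and 339.5 with the empty vector and of 288, 337, 426 and 368 with the tRNA vector. The tRNA arrays of BAX lay within the range of the empty vector, with a log2 fold change of 0.057 ± 0.28. Its sign turned without empty vector array 2 or tRNA vector array 3, and its other probe set gave -0.0033 ± 0.25.

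The death receptors FAS and TNFRSF10B had tRNA vector log2 fold changes of -0.085 ± 0.14 and -0.090 ± 0.081. The other tested FAS probe sets were lower too, at -0.23 ± 0.11, -0.37 ± 0.17 and -0.21 ± 0.15. Those of TNFRSF10B went both ways, at 0.14 ± 0.20, 0.087 ± 0.25 and -0.56 ± 0.51. APAF1, the core of the apoptosome, had -0.042 ± 0.16, CYFIP2, which joins an actin regulating complex, -0.038 ± 0.096, and PERP, a membrane protein, -0.019 ± 0.098. TRIAP1, which counters apoptosis, had 0.0042 ± 0.072, and PIDD1, the scaffold of the PIDDosome, -0.013 ± 0.12. PMAIP1, also called NOXA, had 0.045 ± 0.097. TP53AIP1, a mitochondrial protein, and TP53I11 had wide errors, at -0.16 ± 0.40 and -0.058 ± 0.24. TNFRSF10A signals ran from 9.34 to 101 and EDA2R signals from 9.09 to 101 over the 12 arrays.

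The arrest targets did not share a direction. CDKN1A, the p21 inhibitor of cyclin-dependent kinases, had signals of 1067, 1402, 1129.7 and 1124 with the empty vector and of 1035, 1148, 1169.8 and 1095 with the tRNA vector. These ranges overlap, the log2 fold change was -0.080 ± 0.12, and it was 0.0053 without empty vector array 2. GADD45A, a stress sensor that halts the cycle, had signals of 12751, 9926, 10262 and 10241 with the empty vector and of 9700.3, 9443, 9347 and 8886 with the tRNA vector, with no overlap. Its log2 fold change was -0.20 ± 0.081, and it was -0.12 without empty vector array 1, which lay far above the others. GADD45A had an unadjusted limma p under 0.05 in 17 of the 20 alternative settings.

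PLK3, a stress kinase, was the target farthest above the empty vector and the least even between probe sets. Its signals were 207, 84.4, 195 and 159 with the empty vector and 223, 248, 224 and 302 with the tRNA vector, with no overlap. The log2 fold change was 0.70 ± 0.28, and it was 0.41 without the low empty vector array 2. Its 2 other tested probe sets went the opposite way at -0.48 ± 0.36 and -1.27 ± 0.69, so the mean over the 3 was -0.35. CCNG1, a cyclin that recruits a phosphatase to MDM2, had 0.073 ± 0.083, and PLK2, a kinase of the same family as PLK3, -0.10 ± 0.17.

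**Figure D2:**
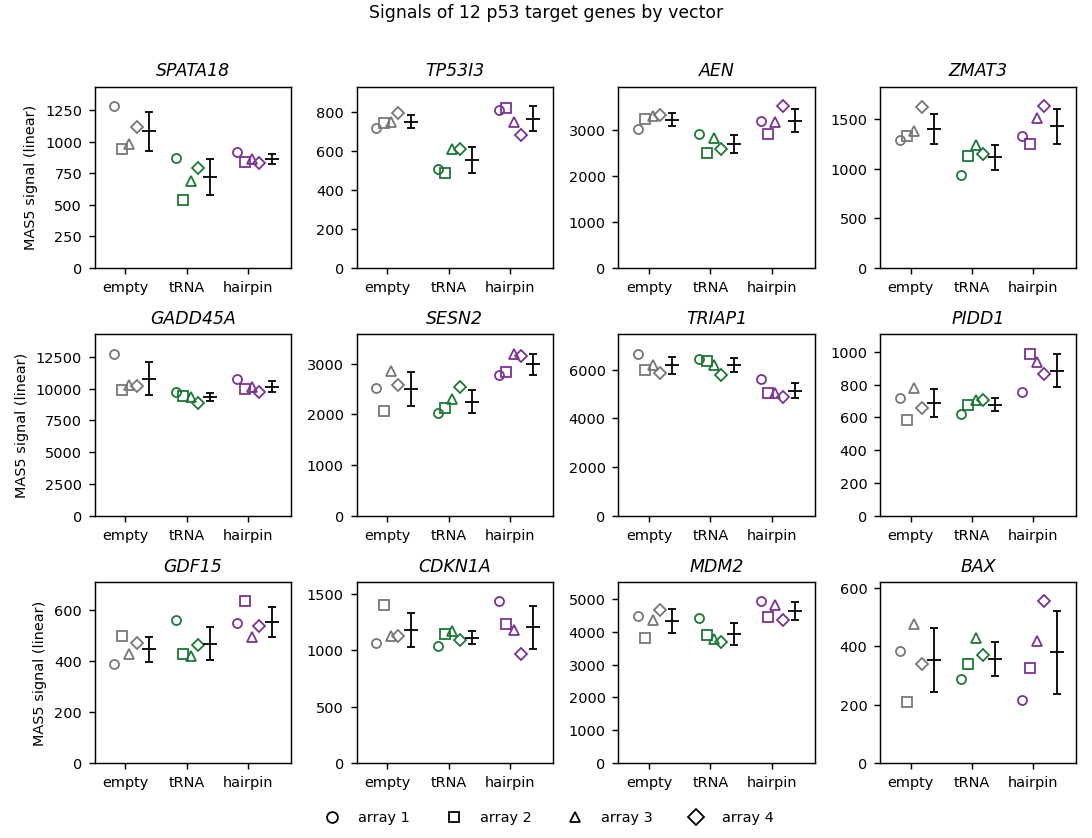
MAS5 signals on a linear scale of 12 p53 targets with the empty, tRNA and hairpin vector. Symbols are single arrays by number and bars the mean ± SD of 4 arrays. SPATA18, TP53I3, AEN, ZMAT3 and GADD45A have all tRNA arrays below all empty vector arrays, and TRIAP1 has all hairpin arrays below both other groups.

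With the hairpin vector, p53 targets had no shared direction against the empty vector. TRIAP1 had a lower mean and PIDD1, SESN2 and GDF15 higher ones. Of the 34 targets, 12 had a lower and 22 (64.7%) a higher mean, against 51.2% of all genes higher, with a median log2 fold change of 0.028 against 0.0042 over all genes. No target passed the limma adjusted p of 0.05, and 0% of all genes did, and the smallest adjusted p among the targets was 0.99991. At an unadjusted limma p under 0.05, 2 targets were lower and 3 higher, against 1.25% and 1.49% of all genes. Without hairpin vector array 2, 3 or 4, that total of 5 was 3, as it was with the mean over a gene's probe sets. Groups did not overlap for 2 lower targets and 0 higher ones, against 1.22% and 1.11% of all genes. This comparison uses the same empty vector arrays as the one above, so the results of both are not independent.

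TRIAP1 was the member most evenly below the empty vector. Its empty vector signals were 6657, 6003, 6179.9 and 5863, its tRNA vector signals 6443, 6344, 6211 and 5771, and its hairpin vector signals 5598, 5030.4, 5056 and 4877. All 4 hairpin arrays lay below every array of the other groups. The log2 fold change of hairpin over empty vector was -0.27 ± 0.072, a fold of 0.832, and within arrays numbered 1, numbered 2, and numbered 3 and 4 it was -0.25, -0.26 and -0.28. It was lower in 4 of 4 same-number pairs, and the limma adjusted p was 0.99991, or 0.400 with the array number as a block.

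PIDD1, whose product can drive either caspase activation or survival signalling, had signals of 719.6, 582, 782 and 658 with the empty vector and of 754, 989, 937 and 864 with the hairpin vector. The lowest hairpin array fell inside the range of the empty vector and the other 3 above it. Its log2 fold change was 0.37 ± 0.12, with 0.18 ± 0.15 from the other probe set. Among the other death targets, BAX had signals of 217, 325, 419 and 553 with the hairpin vector, which spread wider than those of the empty vector, and a log2 fold change of 0.082 ± 0.28. The direction of BAX turned without single arrays. The remaining death targets lay between -0.11 ± 0.16 (APAF1) and 0.16 ± 0.14 (FAS).

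In metabolism, SESN2 had signals of 2520.3, 2064, 2854 and 2578 with the empty vector and of 2785, 2830.5, 3194 and 3149.6 with the hairpin vector. Only empty vector array 3 reached into the hairpin range, and the log2 fold change was 0.26 ± 0.11, or 0.17 without empty vector array 2. The mean over both SESN2 probe sets was 0.21, with an unadjusted limma p of 0.33. GDF15 had 389, 498, 425 and 469 with the empty vector against 546, 632, 494 and 537 with the hairpin vector, which overlap narrowly, and 0.31 ± 0.14 as log2 fold change. The other GDF15 probe sets, with geometric mean signals of 15.5 and 9.56, were too dim to test. SPATA18, with 917, 840.2, 867 and 835 with the hairpin vector, lay below all empty vector arrays at -0.31 ± 0.15. Its unadjusted limma p was under 0.05 in 11 of the 20 alternative settings. The mean over both SPATA18 probe sets was -0.24, with an unadjusted limma p of 0.15. TP53I3 had 813, 823, 749.7 and 682 with the hairpin vector, around its empty vector signals, at 0.025 ± 0.12. TIGAR and SESN1 had 0.043 ± 0.10 and 0.0022 ± 0.11.

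Arrest and feedback targets did not stand apart with the hairpin vector. CDKN1A had signals of 1434, 1234, 1177 and 968, on both sides of the empty vector, and a log2 fold change of 0.022 ± 0.12 whose sign turned without empty or hairpin vector array 1. MDM2 had 4925, 4435, 4821 and 4372, which overlap the empty vector, and 0.10 ± 0.086, or 0.043 without empty vector array 2. Of its 7 other probe sets, 3 had the opposite sign, at -0.23 ± 0.25, -0.44 ± 0.29 and -0.40 ± 0.39. PLK3 had 226, 336, 214 and 173, with overlap, and 0.59 ± 0.28, or 0.31 without empty vector array 2, against -0.55 ± 0.36 and -0.57 ± 0.69 from its other probe sets.

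FBXO22 had 2731, 2885, 3151 and 3296 with the hairpin vector against 3373, 4192, 3153 and 3126 with the empty vector. These overlap, and the log2 fold change was -0.19 ± 0.12, or -0.096 without empty vector array 2. Of its 4 other probe sets, 3 had the opposite sign, at 0.12 ± 0.15, 0.0010 ± 0.11 and 0.012 ± 0.20, and the mean over all 5 was -0.057. The other arrest and feedback targets, GADD45A, PLK2, CCNG1, PPM1D, RPS27L, TP53INP1, ZMAT3 and PHLDA3, lay between -0.18 ± 0.17 (PLK2) and 0.14 ± 0.17 (TP53INP1), each with overlapping arrays.

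Repair targets were split between lower and higher, with a median of -0.028. RRM2B had 1369.7, 994, 989 and 1088 with the hairpin vector. Its array 1 was above every empty vector array, the other 3 were below, and the log2 fold change was -0.15 ± 0.12. It was -0.26 without hairpin vector array 1 and -0.10 without array 3. XPC, DDB2 and POLH had 0.033 ± 0.090, 0.059 ± 0.080 and -0.088 ± 0.17.

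Set directly against each other, the hairpin vector gave higher means than the tRNA vector for most targets. TP53I3, SESN2, PIDD1, ZMAT3, AEN, MDM2 and PHLDA3 were among the higher ones, and TRIAP1 and FBXO22 among the lower ones. Of the 34 targets, 26 (76.5%) had a higher mean, against 50.6% of all genes, with a median log2 fold change of 0.13, against 0.0028 over all genes. No target passed the limma adjusted p of 0.05, and 0% of all genes did, and the smallest adjusted p was 0.9997. With the array number as a block, which the pairing check allows here, 6 probe sets passed. They were those of CIRBP, MANF, IFNGR1 and MAP2K4 (4 genes, or 0.0287% of all genes) and 2 without a single gene name. Still 0 targets passed, with 0.141 for SESN2 as their smallest limma adjusted p in that fit. At an unadjusted limma p under 0.05, 2 targets were lower and 9 higher, against 1.92% and 2.64% of all genes. Groups did not overlap for 1 lower target and 7 higher ones, against 1.58% and 1.66% of all genes. The tRNA vector arrays are those compared with the empty vector above, so a low tRNA array moves both comparisons.

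All 6 metabolic targets had a higher mean with the hairpin than with the tRNA vector, with a median of 0.26. For TP53I3 all 4 hairpin arrays lay above all 4 tRNA arrays, with a log2 fold change of 0.47 ± 0.12, a fold of 1.39. SESN2 did not overlap either, as its tRNA vector signals were 2026, 2126, 2314 and 2542, and its log2 fold change was 0.41 ± 0.11, a fold of 1.33. As the mean over both SESN2 probe sets it was 0.22, no longer at an unadjusted p under 0.05. It was higher in 4 of 4 same-number pairs, by 0.46 within arrays numbered 1, 0.41 within those numbered 2 and 0.39 within those numbered 3 and 4. SPATA18 and GDF15 overlapped, at 0.28 ± 0.15 and 0.25 ± 0.14, with -0.054 ± 0.35 from the other SPATA18 probe set.

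Feedback targets were higher in 6 of 7 cases, with a median of 0.15. MDM2 had a log2 fold change of 0.24 ± 0.086, a fold of 1.18, and was higher in 4 of 4 same-number pairs although the groups overlapped. Of its other probe sets, 2 of 7 had the opposite sign, at -0.064 ± 0.25 and -0.12 ± 0.29. The mean over all MDM2 probe sets was 0.19, with an unadjusted limma p of 0.13. ZMAT3 had 0.36 ± 0.12 with no overlap, and its 4 other probe sets had the same sign, with a mean over all 5 of 0.16. The unadjusted limma p of that mean was 0.19. PHLDA3 had 0.51 ± 0.19, a fold of 1.43, with its other probe set at 0.25 ± 0.14. The exception was FBXO22 at -0.27 ± 0.12, and there 3 of 4 other probe sets had the opposite sign.

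In the death group the members went both ways, with 8 of 12 higher and a median of 0.10. AEN had 0.24 ± 0.082, and its groups were separated only narrowly, by 2919 as the highest tRNA and 2924 as the lowest hairpin signal. PIDD1 had tRNA vector signals of 619.9, 677, 704 and 704, all below its hairpin arrays, and 0.39 ± 0.12. TRIAP1 was again the lowest, at -0.27 ± 0.072, with 4 of 4 same-number pairs lower. BAX had 0.025 ± 0.28, a sign that turned without single arrays. All 4 repair targets had a higher mean, among them XPC at 0.22 ± 0.090 with no overlap and DDB2 at 0.18 ± 0.080 with overlap. The arrest targets had a median of -0.0023, and CDKN1A had 0.10 ± 0.12, which was 0.013 without hairpin vector array 1 and 0.20 without array 4.

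**Figure D3:**
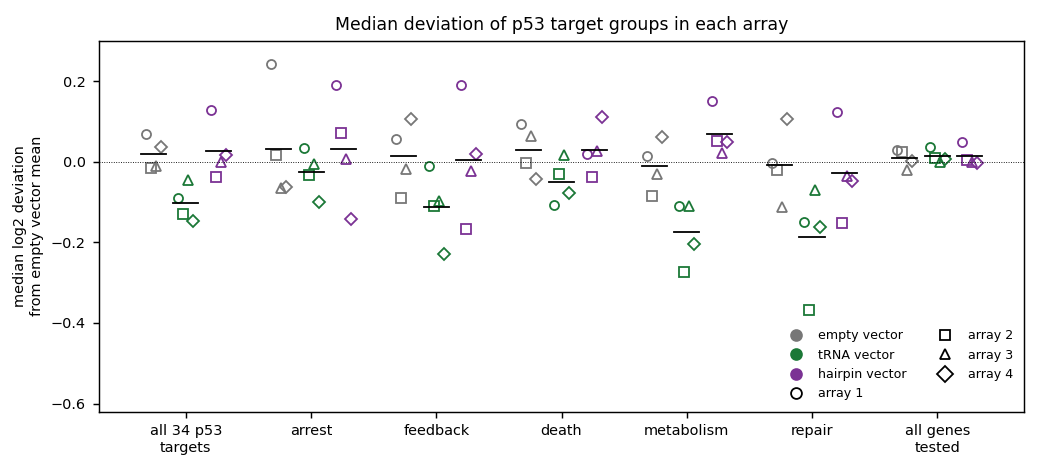
Median log2 deviation from the empty vector mean (y axis) over all 34 p53 targets, each function group and all tested genes, 1 symbol per array and a line at the mean of 4 arrays. The tRNA arrays of all 34 targets lie between -0.15 and -0.045, below all arrays of both other groups, while the arrays of all tested genes lie between -0.021 and 0.050.

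Taken array by array, the targets' median deviation from the empty vector mean was 0.068, -0.016, -0.011 and 0.037 in the empty vector arrays themselves. In the tRNA arrays it was -0.090, -0.13, -0.045 and -0.15, and in the hairpin arrays 0.13, -0.038, 7.6e-05 and 0.018. Every tRNA array was thus below every array of the other groups, and this is a description of a chosen list and no test. For metabolic targets the tRNA arrays ran from -0.27 to -0.11, the empty vector arrays from -0.086 to 0.061 and the hairpin arrays from 0.022 to 0.15. For repair targets the tRNA arrays, from -0.37 to -0.071, overlapped the empty vector arrays, from -0.11 to 0.10.

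**Figure D4:**
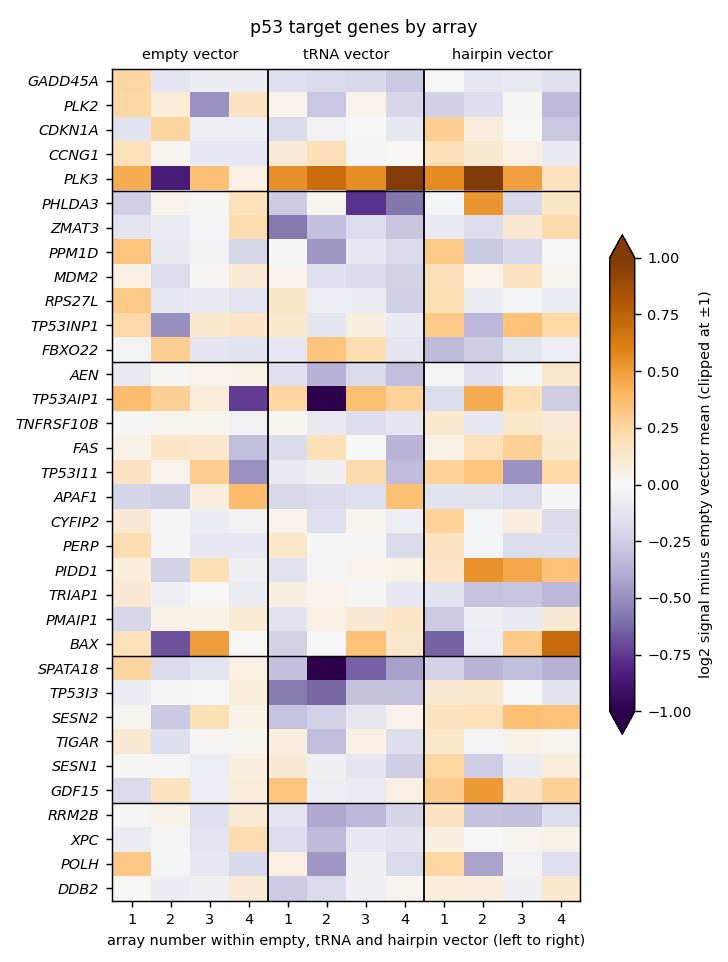
Log2 signal minus the empty vector mean (colour, clipped at ±1) of the 34 measured p53 targets in the 12 arrays, with function groups divided by lines. The 4 tRNA arrays are purple for SPATA18 and TP53I3, and the hairpin arrays are orange for PIDD1 and SESN2.

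Some targets differed more between array numbers than between vectors. With a limma F test of the array number over all genes, 5 of 34 targets passed the adjusted p of 0.05, against 14% of all genes, a share near that of all genes. RPS27L had geometric mean signals of 14365, 11713, 11877 and 11139 in the arrays numbered 1 to 4, with a limma adjusted p of 0.00342 and the highest value at number 1 in all 3 groups. PMAIP1 had 6496, 7583, 7614 and 8136 (limma adjusted p = 0.00809), lowest at number 1 in all 3 groups. PPM1D (0.00933), PERP (0.0118) and TP53INP1 (0.0189) also passed, with their highest mean at number 1. Log2 fold changes of these 5 targets lay between -0.19 and 0.15 in the 3 comparisons.

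Differences between vectors made up a median of 30.2% of a target's variance over the arrays, and differences between array numbers 31.0%. Over all genes these medians were 12.9% and 39.2%. TP53I3 had the highest share for the vector, with 79.1% and 1.69% for the number. TRIAP1 followed with 77.2% and 20.1%. PERP had 2.78% for the vector and 89.9% for the number. The lowest share for the vector was that of BAX, with 0.737%, and 51.5% for the number.

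**Figure D5:**
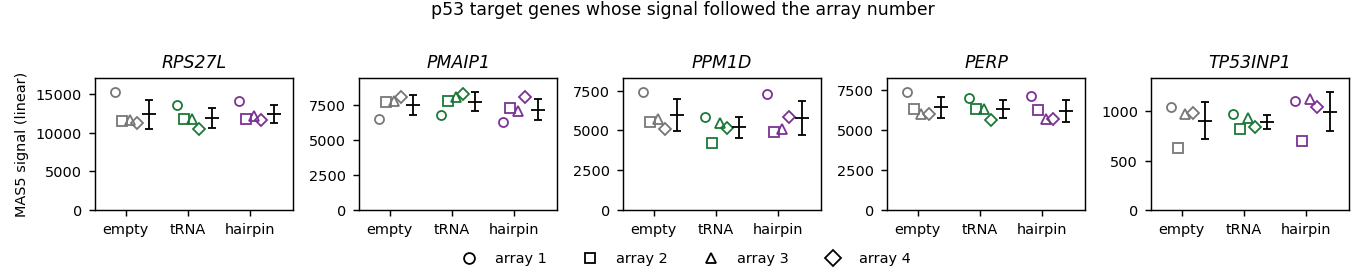
MAS5 signals on a linear scale of the 5 p53 targets that passed the limma F test of the array number, by vector. Symbols are array numbers and bars the mean ± SD of 4 arrays. For RPS27L, PPM1D and PERP array 1 is the highest in each group, and for PMAIP1 the lowest.

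Genes that act on p53 were followed in a list of 30, of which 26 were measured. With the tRNA vector 12 had a lower mean, 1 of them with an unadjusted limma p under 0.05, and the median log2 fold change was 0.038. These shares, 46.2% lower and 3.85% under that p, lie near the 49.3% of all genes with a lower mean and the 2.41% lower and 1.85% higher under that p. That gene was ATM, the kinase that signals double-strand breaks to p53, with signals of 711, 752, 945 and 829.8 with the empty vector and 720.2, 497, 669 and 647 with the tRNA vector. The groups overlapped, the log2 fold change was -0.36 ± 0.14, and its 4 other probe sets were lower too. The mean over the ATM probe sets was -0.26, with an unadjusted limma p of 0.14. CSNK1A1, a casein kinase, and USP7, a deubiquitinase of MDM2 and p53, had higher means at 0.12 ± 0.064 and 0.11 ± 0.073, the latter 0.068 without empty vector array 2, and 8 of 11 other CSNK1A1 probe sets had the opposite sign.

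With the hairpin vector, 2 of these 26 regulators had an unadjusted limma p under 0.05, both higher, against 1.25% lower and 1.49% higher of all genes. USP7 had signals of 2774, 2400.1, 2663 and 2606 with the empty vector and 3102, 2973, 3033 and 3199.9 with the hairpin vector, with no overlap, at 0.24 ± 0.073. Of its 3 other probe sets, 2 had the opposite sign, and the mean over all 4 was 0.059. EP300, an acetyltransferase that acts with p53, had 0.40 ± 0.17, which was 0.22 without hairpin vector array 1, and its other probe set had the opposite sign, with a mean over both of 0.12. CHEK1, a checkpoint kinase, had -0.17 ± 0.098, or -0.11 without empty vector array 1 and -0.073 as the mean over its probe sets. Between the vectors ATM was higher with the hairpin at 0.43 ± 0.14, with no overlap, EP300 had 0.29 ± 0.17 and USP7 0.13 ± 0.073. EP300 was at 0.11 without hairpin vector array 1 and at 0.44 without array 2, and ATM at 0.19 as the mean over its probe sets.

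A further 50 targets of p53, of which 45 were measured, were counted beside the members. With the tRNA vector 26 had a lower mean, 5 of them and 0 higher ones with an unadjusted limma p under 0.05, and the median was -0.048. Of all genes 49.3% had a lower mean, and 2.41% were lower and 1.85% higher under that p. CMBL, a hydrolase, had signals of 3066, 2392, 2303 and 2247 with the empty vector and 2196, 1675, 1531 and 1832 with the tRNA vector, with no overlap, at -0.47 ± 0.13. Its other probe set had the opposite sign, and the mean over both was -0.18. CCDC90B, a mitochondrial protein, had -0.27 ± 0.098, also with no overlap, and TAP1, a peptide transporter of antigen presentation, -0.36 ± 0.14.

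With the hairpin vector 0 of these 45 were lower and 2 higher at an unadjusted limma p under 0.05, against 1.25% and 1.49% of all genes, with a median of 0.030. They were ORAI3, a calcium channel, at 0.67 ± 0.18, and SERTAD1, a regulator of cyclin-dependent kinase 4, at 0.51 ± 0.21, both without overlap. NINJ1, which ruptures membranes in dying cells, had -0.29 ± 0.15. Between the vectors 1 was lower and 7 higher, with 34 of 45 above and a median of 0.10. Of all genes 1.92% were lower and 2.64% higher under that p, and 50.6% had a higher mean. CMBL had 0.37 ± 0.13, E2F7, a repressor of cell cycle genes, 0.21 ± 0.075, and PGF, a growth factor of vessels, 0.39 ± 0.15. As means over their probe sets they were at 0.13, 0.025 and 0.22. No gene of these lists passed the limma adjusted p of 0.05 in any of the 3 comparisons.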

How the data were processed

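The authors deposited 1 signal intensity per probe set and array, made with MAS5 per the submitters' processing notes (version not given in the sources used here) and scaled to a common array intensity, as the values show. The genome build of the annotation is not given in the sources used here. Signals of 54675 probe sets were taken to log2 with no offset. Gene names came from the array's annotation, and 26675 of 32768 tested probe sets had 1 symbol. The 62 control probe sets and 21845 dim ones were left out. A model with 3 group means was fitted with limma 3.58.1 in R 4.3.3 (lmFit, eBayes with an intensity trend), two-sided. It was tested on simulated data.

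The members, the lists and the tests were chosen with earlier results of these data known. Fold changes were named for CDKN1A, MDM2 and BAX, for the members with the smallest unadjusted p (10 with the tRNA vector, 8 in each other comparison), and for the 3 such genes of both other lists. Other members are given as values. Array numbers come from the labels. Same-numbered arrays deviated together with r = 0.108 to 0.356 in the comparisons with the hairpin vector, which meets the rule for pairing, and with r = 0.0987 to 0.284 between tRNA and empty vector, which does not. Alternatives changed the normalization, filter, offset, variance model, block and probe set, or left out 1 array. The number of arrays limits the precision.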

Additional observations from a re-analysis of the deposited data

Results flagged for a closer look

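In 8 of the 102 groups of 4 arrays (34 p53 targets with 3 vectors), 1 array lay far from the other 3, and chance gives about 1 in 20 such groups. GADD45A had 12751 in empty vector array 1, against 9926 to 10262 in the others. RPS27L had 15271 in the same array, against 11275 to 11695. TP53INP1 was low in arrays numbered 2, with 632 with the empty vector (others 969 to 1045) and 703 with the hairpin vector (others 1047 to 1130.5). TNFRSF10B had 1933 in hairpin vector array 2, against 2229.9 to 2272. APAF1 had 686 in tRNA vector array 4, against 467 to 483. TP53AIP1 had 45.8 in tRNA vector array 2, against 153 to 165. TP53I11 had 137 in hairpin vector array 3, against 226 to 241.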

How the results depend on the processing

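Of 51 named fold changes, 41 kept their sign in all settings tried, and 0 targets passed the limma adjusted p in any setting. With the array number as a block, the probe sets that passed between the vectors went from 0 to 6, and with numbers 3 and 4 joined by their Bacillus signals to 8. With the latter block 4 passed for tRNA and 3 for hairpin against the empty vector. The array number changed no call of a target. For tRNA against empty vector 0 probe sets passed with it, and the smallest limma adjusted p among the targets was 0.109 (SPATA18). There r = 0.0987 for number 3 missed the pairing rule, while the Bacillus signals followed the number in all 3 groups. Targets at an unadjusted limma p under 0.05 went from 6 lower and 1 higher to 9 and 1 for tRNA over empty vector. For hairpin over tRNA they went from 2 and 9 to 3 and 12. Counted by probe set in place of gene, the targets went from 6 lower and 1 higher to 15 in total for tRNA over empty vector. Between the vectors their probe sets went from 3 lower and 12 higher to 21 in total. Over all tested probe sets such totals went from 1238 to 2546 and from 1271 to 2596.

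Without single arrays, the targets at an unadjusted limma p under 0.05 with the hairpin vector numbered 3 to 6 (5 with all arrays), and 3 without the intensity trend or with the mean over a gene's probe sets. This count and that of lower means were chosen after seeing the data. The arrest median with the tRNA vector ran from -0.10 to 0.0053, and CDKN1A from -0.13 to 0.0053. The metabolic median with the hairpin vector ran from 0.0043 to 0.076 (the latter without hairpin vector array 2), and CDKN1A from -0.067 to 0.12. The median of all targets with that vector ran from -0.0023 (without empty vector array 2) to 0.048, and its arrest, feedback and repair medians also turned sign. Between the vectors the death median ran from 0.018 (without tRNA vector array 2) to 0.12, and it was 0.046 with no filter. BAX ran from -0.17 to 0.22 with the tRNA vector, from -0.15 to 0.32 with the hairpin vector and from -0.18 to 0.26 between them.

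With the mean over a gene's probe sets, signs turned for PLK3 (-0.35 with tRNA, -0.18 with hairpin), CSNK1A1 (-0.027 with tRNA), MDM2 (-0.014 with hairpin) and USP7 (-0.0017 between the vectors), and 5 in place of 8 targets were lower between the vectors. The cause was not tested. Low signals limit the precision for TP53AIP1, TP53I11 and PLK3, and TNFRSF10A and EDA2R had no test.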
